A study of Homo sapiens with 6 samples.

Results

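The dual-specificity phosphatase (DUSP), Sprouty (SPRY) and SPRED genes include brakes on growth factor and stress signalling. They were taken from the counts table by symbol, as DUSP, SPRY or SPRED followed by a digit, which gave 32 of 23368 genes: 25 DUSP, 4 SPRY and 3 SPRED. RNA was sequenced from H2122, a line of human lung adenocarcinoma cells, harvested 48 hours after they received LYCAT shRNA or control shRNA by transfection. LYCAT is the older name of LCLAT1, an acyltransferase of cardiolipin and phosphatidylinositol. Each shRNA has 3 libraries, all of 1 line, and the sources used here give neither the shRNA sequences nor whether libraries came from separate cultures. The p-values therefore rest on the spread between libraries alone, and that spread may be technical.

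MAP kinases such as ERK, JNK and p38 are switched on by phosphorylation of a threonine and a tyrosine, and dual-specificity phosphatases remove both phosphates. Several of these phosphatases are made in response to the kinase that they switch off, which closes a feedback loop. Sprouty and SPRED proteins act further up, between receptor tyrosine kinases and the kinase cascade.

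The phosphatases share a catalytic signature, in which a histidine and the catalytic cysteine are followed after 5 residues by an arginine. It was found once in 22 of the 24 protein-coding DUSP genes in their longest GENCODE v29 coding sequence, and had no match in DUSP27 or DUSP28. The 24 coding bases of that signature are shown for the 4 phosphatases that act mainly on ERK and for 3 other phosphatases whose RNA changed, since they are the part that these genes have in common. Capitals mark the histidine, cysteine and arginine codons.
DUSP5: CACTGTgaggctgggatctccCGT
DUSP6: CATTGCttggctggcattagcCGC
DUSP7: CACTGCctggcaggcatcagcCGC
DUSP9: CACTGCttggcgggggtcagcCGT
DUSP16: CACTGTttagctgggatctccCGC
DUSP3: CACTGCcgggaaggttatagcCGC
DUSP14: CACTGTgctgcaggggtgagcCGC
These lie in coding exons on chromosomes 10 (DUSP5), 12 (DUSP6 and DUSP16), 3 (DUSP7), X (DUSP9) and 17 (DUSP3 and DUSP14). DUSP6 and DUSP7 shared 20 of the 24 bases, DUSP7 and DUSP9 19, and DUSP6 and DUSP9 18. Sharing of this size was not particular to these genes. DUSP7 also shared 20 bases with DUSP8, and 19 each with DUSP1 and the atypical DUSP15. DUSP5 shared 15 bases with DUSP6, 16 with DUSP7 and 17 with DUSP9, and 20 with DUSP16, a phosphatase of JNK and p38. Outside such short motifs the genes differ. No stretch of 50 bases in the transcripts of DUSP5, DUSP6, DUSP7, DUSP9, DUSP14, DUSP16 or SPRY1 occurred in a transcript of another gene. In DUSP3 1.09% of such stretches did. Reverse complements were not compared, so overlap with genes on the other strand is not covered.

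The deposited counts summed to 3118946 to 4730453 in the LYCAT shRNA libraries and to 4075367 to 4930079 in the control libraries, and the 32 genes held 0.0751% to 0.0824% of them. LCLAT1, the target of the shRNA, stood at 18.9, 22.6 and 23.6 CPM (counts scaled to library size by edgeR) with LYCAT shRNA and at 56.8, 61.2 and 65.3 CPM with control shRNA (log2 -1.50, SE 0.114, edgeR adjusted p = 1.15e-18). An exact permutation test, two-sided, gave p = 0.1, below which 3 against 3 cannot go. The epithelial markers EPCAM, CDH1, KRT7, KRT8, KRT18 and KRT19 were all measured, with a summed level of 1432 to 1498 CPM with LYCAT shRNA and 1607 to 1697 CPM with control shRNA, and CDH1, KRT7, KRT8 and KRT18 fell (edgeR adjusted p under 0.05). Of 13 markers of fibroblasts, endothelium and blood, CD3E, CDH5, PECAM1 and PTPRC were at 0 in all 6 libraries. The summed level of the 13 was 37.2, 18.7 and 31.1 CPM with LYCAT shRNA, against 85.7, 129 and 30.8 CPM in control libraries 1, 2 and 3, nearly all of it from the collagen genes COL1A1, COL1A2 and COL3A1, and its part in the results below was not tested. These 3 were the only ones of the 13 with enough counts to test, and 0 passed with edgeR (1 at an unadjusted p under 0.05), while 1 was lower with DESeq2, 2 with limma-voom, and all 3 with edgeR either at robust=FALSE or without control library 3.

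Of the 32 genes, 22 were abundant enough to test, 5 were counted at lower levels and 5 had no count in any library. With LYCAT shRNA, DUSP5, DUSP14, DUSP3 and SPRY1 rose and DUSP6, DUSP9 and DUSP16 fell, and the other 15 tested genes did not pass (edgeR quasi-likelihood test, adjusted p under 0.05). These 7 of 22 stand beside 19.1% of all 11097 tested genes that changed, 9.81% higher and 9.26% lower. The LYCAT shRNA and control libraries did not overlap for 9 of the 22, where they did not overlap for 32.8% of all tested genes. Only DUSP5 and SPRY1 among the 7 moved by more than 1.5-fold. Without control libraries 1 and 2, which held the most collagen RNA, 3 genes rose and 0 fell with edgeR (4 higher and 5 lower at an unadjusted p under 0.05), and without LYCAT shRNA library 2 alone 3 rose and 0 fell (5 higher and 4 lower at an unadjusted p under 0.05). In these bulk samples fewer cells of a kind and less RNA per cell cannot be told apart.

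**Figure D1:**
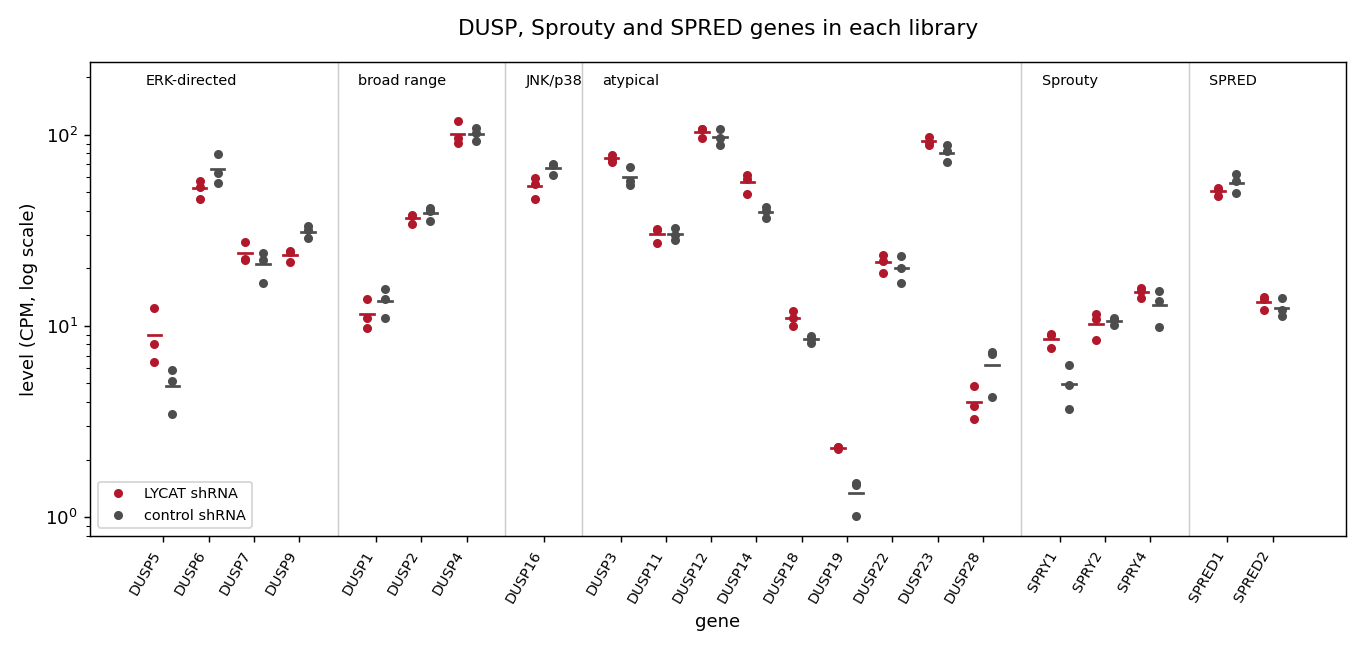
Level in CPM (log axis) of the 22 tested genes in each of the 3 LYCAT shRNA libraries (red) and 3 control shRNA libraries (grey), with a line at each mean, grouped by role. Among the genes that passed, the red points lie wholly above the grey ones for DUSP5, DUSP14, DUSP3 and SPRY1. They lie wholly below for DUSP9 and DUSP16, while for DUSP6 the groups overlap. The red points also lie wholly above for DUSP18, DUSP19 and DUSP23, which did not pass.

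The 4 phosphatases that act mainly on ERK did not move together: DUSP5 rose, DUSP6 and DUSP9 fell, and DUSP7 did not pass. Their median log2 fold change was -0.06, beside -0.01 over all tested genes. The summed level of the 4 was 112, 104 and 111 CPM with LYCAT shRNA and 137, 108 and 124 CPM with control shRNA, so the groups overlapped.

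DUSP5 is the nuclear phosphatase of ERK and is itself induced by ERK signalling. It stood at 8.08, 6.45 and 12.4 CPM with LYCAT shRNA, against 5.14, 3.45 and 5.91 CPM with control shRNA. All 3 LYCAT shRNA libraries were above all 3 controls, and LYCAT shRNA library 3 stood well above the other 2. The mean was 8.97 ± 3.06 CPM with LYCAT shRNA and 4.83 ± 1.26 CPM with control shRNA (SD, n = 3 each), a 1.91-fold rise (log2 0.93, SE 0.261, edgeR adjusted p = 0.00616). These levels rest on 20 to 53 counts with LYCAT shRNA and 17 to 24 with control shRNA, and the exact Poisson 95% interval for the lowest LYCAT shRNA library, 3.94 to 9.96 CPM, reaches the level of every control library but 2. Without LYCAT shRNA library 3 the log2 fold change was 0.63 and did not pass (edgeR adjusted p = 0.182), nor did it without control library 2 (0.0542) or with DESeq2 (0.0703). The processed pseudogene DUSP5P had 4, 2 and 5 counts with LYCAT shRNA and 1, 4 and 1 with control shRNA, too few to test, and shares no stretch of 50 bases with DUSP5.

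DUSP6 removes phosphates from ERK in the cytoplasm and is widely used as a readout of ERK activity. It stood at 57.6, 53.5 and 46.2 CPM with LYCAT shRNA and at 79.3, 55.7 and 63.0 CPM with control shRNA. Control library 1 was the highest of the 6, and control library 2 lay inside the range of the LYCAT shRNA libraries. The fit gave a 1.26-fold fall (log2 -0.33, SE 0.105, edgeR adjusted p = 0.0208). Without control library 1 the log2 fold change was -0.17 (edgeR adjusted p = 0.322), and DUSP6 also missed without LYCAT shRNA library 2 (0.0789) or 3 (0.188) and with DESeq2 (0.106). In GENCODE v29 an antisense gene, AC024909.2, covers 40.5% of the exon bases of DUSP6. The sources used here do not say whether strand was used in counting, so reads of this gene pair cannot be told apart.

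DUSP9, another cytoplasmic phosphatase with a preference for ERK, stood at 24.5, 21.6 and 24.8 CPM with LYCAT shRNA and at 28.7, 31.6 and 33.2 CPM with control shRNA. The groups did not overlap. The mean was 23.6 ± 1.74 CPM with LYCAT shRNA and 31.2 ± 2.29 CPM with control shRNA (SD, n = 3 each), a 1.31-fold fall (log2 -0.39, SE 0.127, edgeR adjusted p = 0.0214). It missed without LYCAT shRNA library 1 or 2 or control library 3 (edgeR adjusted p = 0.0556, 0.0934 and 0.0948) and with DESeq2 (0.118), at log2 fold changes of -0.44 to -0.34 over the 6 left-out fits. DUSP7, the remaining cytoplasmic member, stood at 22.3, 22.3 and 27.6 CPM with LYCAT shRNA and 24.0, 16.8 and 22.2 CPM with control shRNA, with overlapping groups. Its log2 fold change of 0.21 had a 95% interval of -0.08 to 0.49 (edgeR adjusted p = 0.348).

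With edgeR DUSP5 rose while DUSP6 and DUSP9 fell, and none of these genes passed with DESeq2. Ratios of their counts within a library restate these differences without library scaling. For every 100 counts of DUSP6 there were 14.0, 12.0 and 26.8 counts of DUSP5 with LYCAT shRNA and 6.49, 6.18 and 9.38 with control shRNA. For every 100 counts of DUSP9 there were 33.0, 29.9 and 50.0 counts of DUSP5 with LYCAT shRNA and 17.9, 10.9 and 17.8 with control shRNA. In neither ratio did the groups overlap. For DUSP9 this follows from the levels above, where neither DUSP5 nor DUSP9 overlapped between the groups, so the ratio adds no evidence. The pairs were chosen after the values were seen and are given as a description, without a test.

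The inducible nuclear phosphatases of broad range, which act on ERK and on other MAP kinases, did not pass: 0 of DUSP1, DUSP2 and DUSP4 changed with edgeR, 0 were under an unadjusted p of 0.05, and 0 passed with DESeq2 or limma-voom. DUSP1, a gene induced within minutes by growth factors and stress, stood at 13.8, 11.0 and 9.81 CPM with LYCAT shRNA and 15.6, 10.9 and 13.8 CPM with control shRNA (log2 -0.21, 95% interval -0.58 to 0.17). DUSP2 stood at 37.6, 34.2 and 38.1 CPM with LYCAT shRNA and 40.1, 35.5 and 41.6 CPM with control shRNA (log2 -0.08, interval -0.30 to 0.14). DUSP4, a nuclear phosphatase that ERK signalling also induces, stood at 95.9, 118 and 90.8 CPM with LYCAT shRNA and 109, 92.8 and 102 CPM with control shRNA (log2 -0.01, interval -0.17 to 0.15). The groups overlapped for all 3 genes. For DUSP4, the most precisely measured of them, the interval leaves room for a change of at most 0.17 on the log2 scale in either direction.

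Among the phosphatases that act on JNK and p38, DUSP16 fell and was the only one with enough counts to test. It stood at 59.8, 46.1 and 55.3 CPM with LYCAT shRNA and at 61.7, 69.5 and 70.2 CPM with control shRNA, with LYCAT shRNA library 1 close to control library 1 and no overlap. The fall was 1.23-fold (log2 -0.30, SE 0.0938, edgeR adjusted p = 0.0144). It did not pass without LYCAT shRNA library 2 (edgeR adjusted p = 0.150) or control library 3 (0.0745), or with DESeq2 (0.0848). DUSP8 had 13, 4 and 8 counts with LYCAT shRNA and 6, 4 and 8 with control shRNA, and DUSP10 had 5, 0 and 2 with LYCAT shRNA and 2, 1 and 2 with control shRNA. Neither gene was tested, and no direction is given for them.

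The atypical DUSP genes are mostly small phosphatases that lack the MAP kinase binding domain of the others, DUSP27 being long at 3474 coding bases. They were the group with the most members, 14, of which 9 were tested. Of these 9, DUSP14 and DUSP3 rose, 0 fell and 7 missed the threshold, beside the 9.81% of all tested genes that rose. The fitted values were above 0 for 8 of the 9, with a median of 0.20, and for 5437 of all 11097 tested genes. The 8 include DUSP11 (log2 0.0039) and DUSP22 (log2 0.10), whose signs turned in some fits with a library left out. Whether the atypical genes moved together was not tested. DUSP14, which is known to restrain signalling through TAB1 in T cells, stood at 58.9, 61.6 and 49.0 CPM with LYCAT shRNA and at 36.7, 41.8 and 40.1 CPM with control shRNA. The lowest LYCAT shRNA library was above the highest control. Its mean was 56.5 ± 6.61 CPM with LYCAT shRNA and 39.5 ± 2.61 CPM with control shRNA (SD, n = 3 each), a 1.42-fold rise (log2 0.51, SE 0.103, edgeR adjusted p = 0.00011). Of the 22 tested genes DUSP14 had the smallest adjusted p, and it passed in every fit with 1 library left out (edgeR adjusted p up to 0.00583) and with DESeq2 (0.00229).

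DUSP3, also called VHR, acts on ERK and JNK in cells and is linked to progress through the cell cycle. It stood at 75.1, 72.2 and 78.5 CPM with LYCAT shRNA and at 68.2, 57.6 and 54.9 CPM with control shRNA, without overlap. The rise was 1.25-fold (log2 0.32, SE 0.0887, edgeR adjusted p = 0.00521), and DUSP3 passed with DESeq2 (0.0410) but missed without control library 3 (edgeR adjusted p = 0.0508). DUSP3 and DUSP14 lie on chromosome 17. Against DUSP16, there were 98.6, 134 and 88.6 counts of DUSP14 for every 100 with LYCAT shRNA and 59.4, 60.1 and 57.2 with control shRNA, again chosen after the values were seen.

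The other atypical genes did not pass. DUSP23, the gene with the highest level per length in either group, stood at 91.2, 88.4 and 97.4 CPM with LYCAT shRNA and 72.0, 88.0 and 82.0 CPM with control shRNA. Its groups did not overlap, but by a margin of less than 1 CPM (log2 0.20, edgeR adjusted p = 0.0749), and it passed without control library 2 (0.0132). DUSP28 stood at 3.83, 4.84 and 3.27 CPM with LYCAT shRNA and 7.29, 4.26 and 7.14 CPM with control shRNA (log2 -0.66, edgeR adjusted p = 0.113), and likewise passed as lower without control library 2 (0.0347). In GENCODE v29, 12.5% of its exon bases overlap ANKMY1 on the other strand.

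DUSP18 and DUSP19 did not overlap between the groups but did not pass. DUSP18 stood at 9.99, 11.0 and 11.9 CPM with LYCAT shRNA and 8.57, 8.11 and 8.87 CPM with control shRNA (log2 0.36, edgeR adjusted p = 0.236), and 34.4% of its exon bases overlap SLC35E4 on the other strand. DUSP19, which acts in the JNK pathway, had 11, 7 and 10 counts with LYCAT shRNA and 7, 5 and 6 with control shRNA (log2 0.80, 95% interval -0.13 to 1.72). With so few counts the interval of DUSP19 spans both no change and a large rise.

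DUSP11, a phosphatase that acts on the ends of RNA and not on MAP kinases, had a log2 fold change of 0.0039 (95% interval -0.24 to 0.25). DUSP12 had 0.09 (interval -0.06 to 0.24) and DUSP22, known from T cell receptor signalling, 0.10 (interval -0.19 to 0.40). The signs of DUSP11 and DUSP22 turned in some fits with a library left out, so no direction is given for them. DUSP13 had 14, 8 and 7 counts with LYCAT shRNA and 9, 5 and 2 with control shRNA and was not tested. DUSP15, DUSP21, DUSP26 and DUSP27 had a count of 0 in every library, where 3 counts correspond to 0.638 to 0.967 CPM with LYCAT shRNA and 0.608 to 0.739 CPM with control shRNA.

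**Figure D2:**
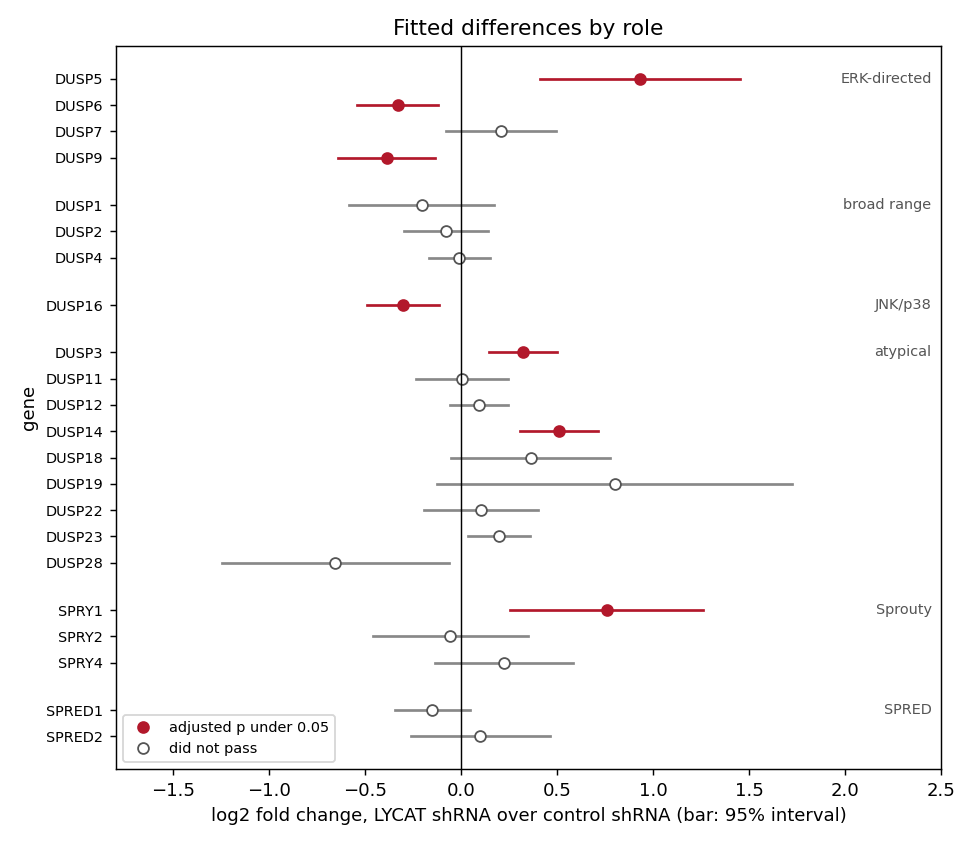
Fitted log2 fold change of LYCAT shRNA over control shRNA for the 22 tested genes, by role, with its 95% interval as a bar and filled points for an adjusted p under 0.05. Filled points fall on both sides of 0 among the ERK-directed phosphatases, with DUSP5 at 0.93 and DUSP9 at -0.39. The intervals of DUSP23 and DUSP28 exclude 0 although their p-values, adjusted over all tested genes, did not pass.

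Changes in both directions were found among the ERK-directed phosphatases and among the other DUSP genes, and the difference between these groups was not tested. Of the 4 ERK-directed genes tested, 1 rose and 2 fell. Of the 13 other DUSP genes tested, 2 rose and 1 fell, and their median log2 fold change was 0.09. Counting DUSP1, DUSP2 and DUSP4 as ERK-directed gave medians of -0.08 for 7 ERK-directed genes and 0.15 for 10 others. The ERK-directed median was 0.08 without control library 1 and -0.16 without control library 2, so its sign rests on single libraries.

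Of the Sprouty genes, SPRY1 rose and SPRY2 and SPRY4 did not pass. Sprouty proteins are induced by receptor tyrosine kinase signalling and restrain the RAS-ERK branch. SPRY1 stood at 8.93, 9.03 and 7.71 CPM with LYCAT shRNA and at 4.93, 6.28 and 3.69 CPM with control shRNA. The groups did not overlap, and the control libraries were more spread than the LYCAT shRNA libraries. The mean was 8.56 ± 0.737 CPM with LYCAT shRNA and 4.97 ± 1.29 CPM with control shRNA (SD, n = 3 each), a 1.69-fold rise (log2 0.76, SE 0.253, edgeR adjusted p = 0.0248). It rests on 28 to 42 counts with LYCAT shRNA and 15 to 31 with control shRNA, and missed without LYCAT shRNA library 1 or 2 or control library 1 or 3 (edgeR adjusted p = 0.101, 0.0721, 0.0658 and 0.126) and with DESeq2 (0.128).

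SPRY2 stood at 10.8, 11.6 and 8.41 CPM with LYCAT shRNA and 10.7, 10.9 and 10.1 CPM with control shRNA (log2 -0.06, 95% interval -0.46 to 0.35). For every 100 counts of SPRY2 there were 82.4, 77.8 and 91.7 counts of SPRY1 with LYCAT shRNA and 46.0, 57.4 and 36.6 with control shRNA. This pair too was chosen after the values were seen, and the ratio was not tested. SPRY4 stood at 15.7, 15.2 and 14.0 CPM with LYCAT shRNA and 15.2, 9.93 and 13.5 CPM with control shRNA (log2 0.22, interval -0.14 to 0.58), with overlapping groups. SPRY3 had 6, 2 and 0 counts with LYCAT shRNA and 1, 5 and 3 with control shRNA and was not tested.

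SPRED proteins bind neurofibromin, the product of NF1, and bring it to the membrane to switch RAS off. With edgeR 0 of the 2 tested SPRED genes passed, 0 were under an unadjusted p of 0.05, and 0 passed with DESeq2 or limma-voom. SPRED1 stood at 51.7, 52.6 and 47.6 CPM with LYCAT shRNA and 49.5, 57.2 and 62.1 CPM with control shRNA (log2 -0.15, 95% interval -0.35 to 0.04). SPRED2 stood at 14.2, 13.9 and 12.1 CPM with LYCAT shRNA and 13.9, 12.2 and 11.3 CPM with control shRNA (log2 0.10, interval -0.26 to 0.46). The groups overlapped for each, and SPRED3 had a count of 0 in every library. Over the 5 tested Sprouty and SPRED genes the median log2 fold change was 0.10.

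**Figure D3:**
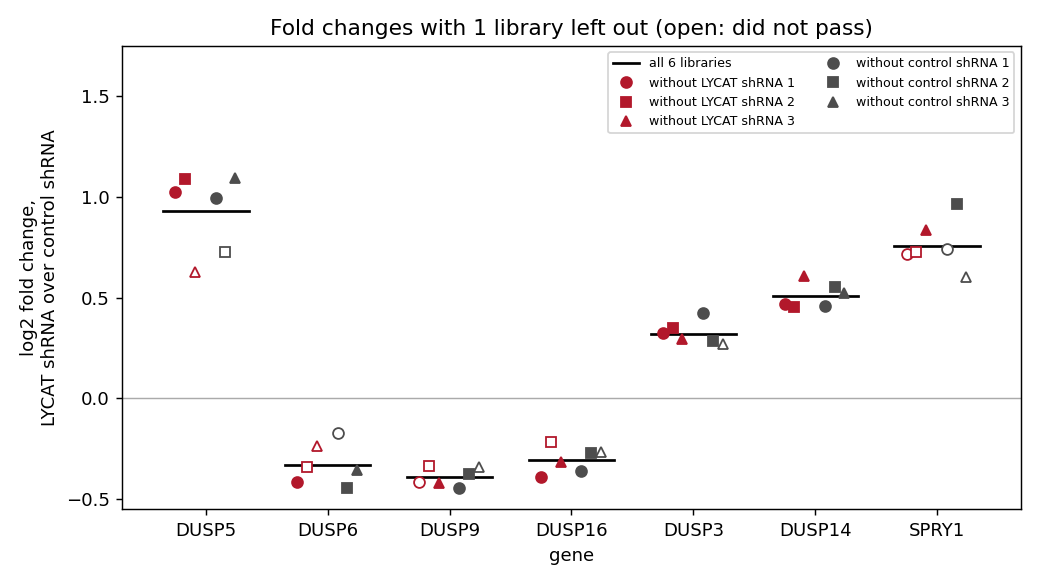
Log2 fold change of the 7 changed genes with all 6 libraries (line) and with 1 library left out (points, coloured by the group of that library), with open points where the adjusted p was not under 0.05. All points keep the side of 0 given by the line, and all 6 points are filled for DUSP14 alone, while SPRY1 has 4 open points.

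Levels per length of exon in GENCODE v29 put the genes in an order that was similar with either shRNA. DUSP23 led with 112 ± 5.59 CPM per kb with LYCAT shRNA and 97.8 ± 9.77 CPM per kb with control shRNA (SD, n = 3 each). DUSP12 followed with 58.9 ± 3.57 CPM per kb with LYCAT shRNA and 55.2 ± 5.41 CPM per kb with control shRNA. Both are atypical. The highest typical MAP kinase phosphatase per length was DUSP2, in place 4 with LYCAT shRNA and place 3 with control shRNA. It stood at 19.0 ± 1.10 CPM per kb with LYCAT shRNA and 20.2 ± 1.66 CPM per kb with control shRNA. Typical and atypical genes were mixed below DUSP12. Without the length, DUSP4 averaged 102 CPM with LYCAT shRNA and 101 CPM with control shRNA, above DUSP23 with 92.3 and 80.7 CPM.

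Among the ERK-directed genes the order of levels per length was DUSP6, DUSP9, DUSP7 and DUSP5 with either shRNA. With LYCAT shRNA they stood at 11.3 ± 1.25, 8.50 ± 0.626, 4.26 ± 0.538 and 3.43 ± 1.17 CPM per kb, and DUSP7 and DUSP5 did not differ beyond their SDs. With control shRNA they stood at 14.3 ± 2.60, 11.2 ± 0.826, 3.72 ± 0.661 and 1.85 ± 0.482 CPM per kb, and there DUSP6 and DUSP9 did not differ beyond their SDs. By this measure DUSP5 held place 15 of the 32 genes with LYCAT shRNA and place 19 with control shRNA. Of the Sprouty genes SPRY2 was the highest per length, with 3.39 ± 0.551 CPM per kb with LYCAT shRNA and 3.48 ± 0.144 CPM per kb with control shRNA, and SPRY1 stood at 2.16 ± 0.186 CPM per kb with LYCAT shRNA and 1.25 ± 0.327 CPM per kb with control shRNA. Exon lengths come from all annotated isoforms, which the cells need not use, so these levels are approximate.

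**Figure D4:**
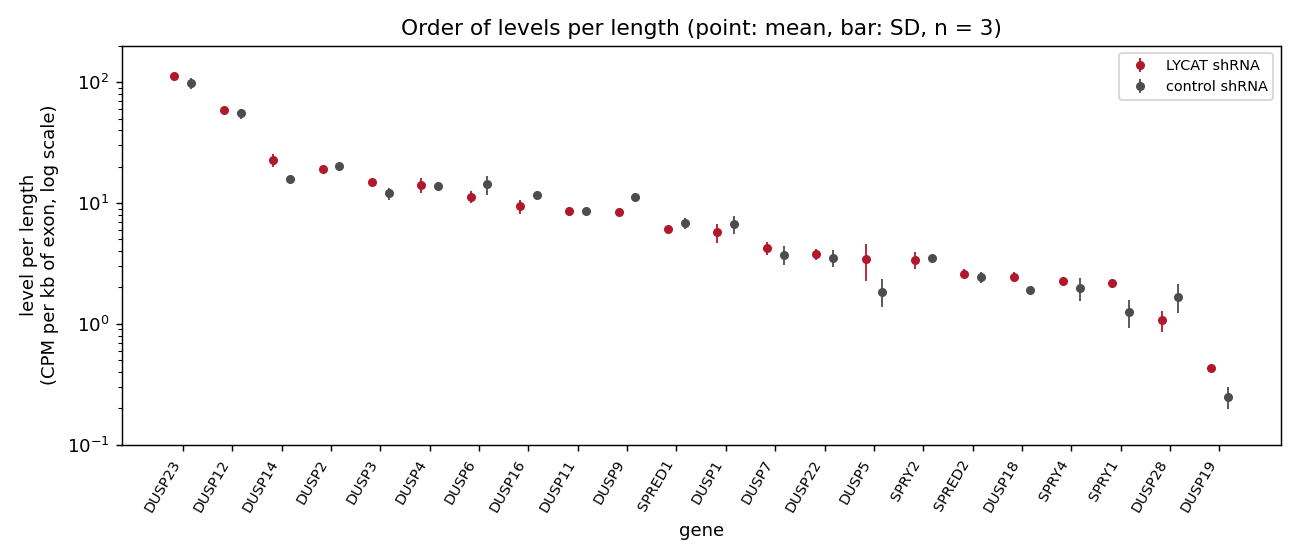
Level per length (CPM per kb of exon, log axis; point: mean, bar: SD, n = 3) of the 22 tested genes, ordered by the LYCAT shRNA level, with LYCAT shRNA in red and control shRNA in grey. DUSP23 and DUSP12 stand highest with either shRNA, and DUSP19 is the lowest tested gene.

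The genes around these brakes were taken from 5 lists chosen for known function with earlier results of these data in view. Among 17 tested genes that ERK signalling is known to induce, 8 rose, 1 fell and 8 missed the threshold (median log2 fold change 0.18). Of all tested genes 9.81% rose and 9.26% fell. FOSL1, an AP-1 subunit that is stabilised and induced by ERK, stood at 50.4, 50.0 and 48.1 CPM with LYCAT shRNA and 15.9, 15.8 and 15.5 CPM with control shRNA (log2 1.65, edgeR adjusted p = 3.86e-19). PHLDA1, long used as a transcriptional readout of ERK output, rose (log2 0.70, edgeR adjusted p = 1.72e-18), and so did the EGFR ligands AREG (log2 1.15, 8.8e-17) and TGFA (log2 1.17, 1.32e-16). JUNB, another AP-1 subunit, fell to 98.5, 100 and 88.7 CPM with LYCAT shRNA, against 147, 112 and 149 CPM with control shRNA (log2 -0.50, edgeR adjusted p = 1.46e-05). Each of these 5 passed with every 1 library left out. Among the brakes that ERK or growth factor signalling induces, DUSP5 and SPRY1 rose, DUSP6 fell, and DUSP1, DUSP4, SPRY2 and SPRY4 did not pass. EREG, another EGFR ligand named after its value was seen, averaged 7.08 CPM with LYCAT shRNA and 0.834 CPM with control shRNA (log2 3.09, edgeR adjusted p = 4.92e-09).

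The RAS-ERK core had 20 tested genes, of which 1 rose, 3 fell and 16 missed the threshold (median log2 fold change 0.03). These counts stand beside 19.1% of all tested genes that changed, 9.81% higher and 9.26% lower. NRAS, a RAS family member, stood at 33.0, 36.4 and 33.6 CPM with LYCAT shRNA and 57.9, 47.2 and 59.3 CPM with control shRNA (log2 -0.68, edgeR adjusted p = 7.76e-07). MAPK3, which encodes ERK1 and so a substrate of these phosphatases, stood at 21.5, 19.0 and 21.7 CPM with LYCAT shRNA and 27.6, 33.4 and 29.1 CPM with control shRNA (log2 -0.53, edgeR adjusted p = 0.00206). The groups overlapped for neither gene. ARAF, which encodes a kinase of the cascade, passed narrowly as higher (log2 0.38, edgeR adjusted p = 0.0310) and missed without LYCAT shRNA library 1 or 3 or control library 2 and with DESeq2 (0.161).

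Among kinases downstream of ERK and p38, 2 of 9 rose, 2 fell and 5 did not pass. These calls stand beside 9.81% of all tested genes that rose and 9.26% that fell. RPS6KA2, a ribosomal S6 kinase of the RSK family, stood at 8.08, 7.09 and 9.34 CPM with LYCAT shRNA and 17.8, 15.8 and 21.2 CPM with control shRNA (log2 -1.13, edgeR adjusted p = 2.6e-06). MKNK2, a kinase of the translation factor eIF4E, fell (log2 -0.28, edgeR adjusted p = 0.00127), and MAPKAPK2 and MAPKAPK3 rose (log2 0.29 and 0.27, edgeR adjusted p = 0.00926 and 0.0318). MAPKAPK2 missed without LYCAT shRNA library 1, and MAPKAPK3 without LYCAT shRNA library 1 or 3 or control library 1 or 3. Neither of these 2 passed with DESeq2.

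In the JNK and p38 core 10 genes were tested, and their median log2 fold change was -0.08. Of the 10, 0 rose, 2 fell and 8 missed the threshold, beside 9.81% higher and 9.26% lower of all tested genes. At an unadjusted p under 0.05 there were 4 with edgeR. MAP2K4 (log2 0.28, edgeR adjusted p = 0.0515) and MAP2K7 (log2 -0.29, 0.0506) missed narrowly. With DESeq2 size factors or limma-voom 1 gene was higher. With library totals, a minimum mean of 5 CPM or robust=FALSE 3 genes were lower. The 2 genes that fell encode kinases at the top of the cascades. MAP3K1 stood at 29.6, 33.2 and 22.9 CPM with LYCAT shRNA and 36.0, 41.3 and 41.9 CPM with control shRNA (log2 -0.49, edgeR adjusted p = 0.00147), and missed without LYCAT shRNA library 3 (0.0674). MAP3K5 stood at 11.9, 13.5 and 11.9 CPM with LYCAT shRNA and 22.1, 18.0 and 18.0 CPM with control shRNA (log2 -0.65, edgeR adjusted p = 0.00274).

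Other brakes of RAS-ERK signalling gave 0 calls among 11 tested genes with edgeR, where 2 were under an unadjusted p of 0.05. They gave 0 with DESeq2 or limma-voom. Of all tested genes 19.1% changed with edgeR. PEBP1, an inhibitor of the ERK cascade, stood at 589, 608 and 610 CPM with LYCAT shRNA and 639, 616 and 617 CPM with control shRNA (log2 -0.05, edgeR adjusted p = 0.484). NF1, the partner of the SPRED proteins, stood at 39.8, 38.7 and 37.1 CPM with LYCAT shRNA and 39.0, 40.3 and 42.1 CPM with control shRNA (log2 -0.07, edgeR adjusted p = 0.719). Their median log2 fold change was -0.09.

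**Figure D5:**
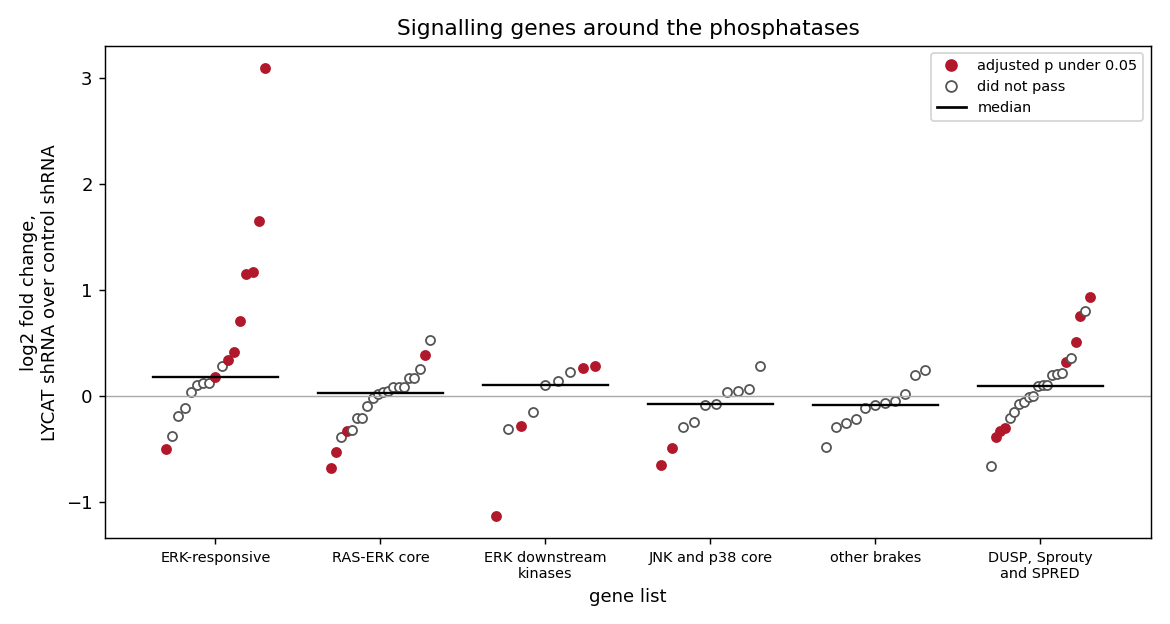
Log2 fold change of LYCAT shRNA over control shRNA for each tested gene of 5 signalling lists and of the DUSP, Sprouty and SPRED genes, sorted within a list, with a line at the median and filled points for an adjusted p under 0.05. The ERK-responsive genes reach highest, and the list of other brakes has no filled point. The highest point is EREG at 3.09.

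Promoters were found in the RefSeq table (GRCh38.p14) for 26 of the 32 genes, in 39 windows of 250 bases before to 50 after a start, and were searched on both strands. Of the 7 genes that changed, 6 were searched, all but DUSP5. The ERK-linked ETS motif CCGGAAG was in a window of SPRY1, among these 6, and in a window of DUSP15, which had no counts, beside 10.3% of all windows. The motif TGACGTCA, bound by CREB, was in windows of DUSP1 and DUSP8 (1.85% of all windows), and the AP-1 motif TGANTCA in windows of SPRED2 and SPRED3 (7.71%). The CArG box, bound by serum response factor, had no match in these windows (1.29% of all). No gene had matches to more than 1 of these motifs, and a match is a description of letters only.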

How the data were processed

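RNA of 6 H2122 libraries was measured by sequencing, and the values used are the counts per gene that the authors deposited as 1 table, with no normalization. The submitters' processing notes name featureCounts 1.5.1, BWA 0.7.15, Bowtie2 and bcl2fastq 2.17 as tools, and as builds mm10 and hg19. The sources used here do not say which aligner, build or strand setting made this table. Columns were assigned by name: the name of the LYCAT shRNA columns reads as a misspelling of LYCAT.

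In edgeR 4.0.16 (R 4.3.3) filterByExpr left 11097 genes with 99.77% of the counts, libraries were scaled by TMM, and groups were compared with the quasi-likelihood F test (robust=TRUE, group as the only term). Adjusted p-values are Benjamini-Hochberg over all 11097 genes, with a threshold of 0.05, and "rose", "fell" or "changed" means past it. SE is the size of the log2 fold change over the square root of F, and 95% intervals use the t quantile of the fit. CPM use the scaled library sizes, and SD is over the 3 libraries of a group. Poisson intervals and the floor of 3 counts cover counting error only. The fit was also run on simulated counts. That outcome is not reported here, and no result rests on it.

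The genes and lists were chosen with earlier results of these data known. Named were all 32 genes of the rule, LCLAT1, and from each of the 5 pathway lists the changed genes with the smallest adjusted p, up to 4 in each direction, or up to 2 abundant genes where none changed; cell type markers were a separate list. Some genes of the RAS-ERK core enter its counts but are not reported here by name. Exon lengths, overlaps, shared stretches and signature codons come from GENCODE v29 (GRCh38), to which all 32 symbols matched, and are not from a build the notes name. Alternatives were DESeq2 1.42.0 and its size factors, library totals, other filters, limma-voom (limma 3.58.1), robust=FALSE, a replicate block and leaving out libraries.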

Additional observations from a re-analysis of the deposited data

How the results depend on the processing

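The same 7 genes passed with library totals unscaled, with DESeq2 size factors, without a filter, at a minimum mean of 5 CPM, and with limma-voom, robust=FALSE and the replicate block. DESeq2 called 635 genes higher and 558 lower, where edgeR called 1089 and 1028, and of the 32 genes 2 higher (DUSP3 and DUSP14) and 0 lower, where 4 were higher and 3 lower at an unadjusted p under 0.05; the cause was not tested. Equal replicate numbers did not pair libraries: the correlations of their deviations were 0.0051, -0.064 and -0.048, and the fit with replicate number as a block gave 1044 genes higher and 1002 lower.

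With 1 library left out, which also lowers the number of samples, 742 to 1128 genes were higher and 700 to 1100 lower, and 2 to 4 of the 32 genes were higher and 0 to 4 lower. The 0 arose without LYCAT shRNA library 2, where edgeR gave 4 lower at an unadjusted p under 0.05. LCLAT1 ranged from -1.57 to -1.40. Median log2 fold changes ranged from -0.16 to 0.076 for ERK-directed phosphatases, 0.0042 to 0.15 for other DUSP genes and 0.05 to 0.19 for Sprouty and SPRED genes. Signs turned in the ranges of DUSP4 (-0.11 to 0.066), DUSP11 (-0.050 to 0.085), DUSP22 (-0.013 to 0.22) and SPRY2 (-0.13 to 0.078), and DUSP11 was at -0.0100 with library totals; the cause was not tested.

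After the data were seen, control libraries 1 and 2, which held the most collagen RNA, were left out together; the lone control was assumed to vary like the others. This gave 573 genes higher and 556 lower, and of the 32 genes 3 higher and 0 lower (4 and 5 at an unadjusted p under 0.05 with edgeR), with DUSP11 at -0.10, DUSP22 at -0.11 and SPRY2 at 0.015. The median of the other DUSP genes was 0.018 there and 0.20 without a filter, where more genes enter. Of the 10 genes that the filter on low counts removed, 5 had no count and 5 had at most 14 counts in a library.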
